A study of Homo sapiens with 4 samples.

Results

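The genes described here encode the machines that move nucleosomes and the enzymes that add or remove acetyl groups on histones and other proteins. They are 60 genes chosen by name, with earlier results of these data known. The list holds 16 SWI/SNF subunits, 5 ISWI and related SNF2 genes, 8 CHD genes and 3 MTA genes of the NuRD complex. It also holds 5 helicase genes of the INO80, SRCAP and TIP60 complexes, 9 HDAC genes, 5 sirtuin genes and 9 acetyltransferase genes. Each was found by its Ensembl ID, and all 60 were among the 18817 genes that passed the filter on low counts, out of 64252 listed IDs. The lowest count of any of them in any library was 348, for SIRT3. RNA came from J.gamma1, a human leukaemic T-cell line derived from Jurkat (T-cell acute lymphoblastic leukaemia), known for its lack of PLCG1 protein. One group was cultured for 48 h with 10 µM FB23-2, and the other, called control, for 48 h with the DMSO vehicle at under 0.1%. FB23-2 is a small molecule that inhibits FTO, an RNA demethylase, and it carries a hydroxamic acid, the zinc-binding group of many HDAC inhibitors. Each group held 2 libraries from independent biological replicates of this 1 cell line.

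Nucleosome remodelers use ATP to slide, eject or exchange histones, and each ATPase works inside a complex whose other subunits choose the target. Acetyltransferases such as p300 place acetyl marks that bromodomain proteins read, and deacetylases remove them: the HDACs with a zinc ion, the sirtuins with NAD+. In T-lineage cells these enzymes act with lineage factors to open or close the genes of thymocyte development, and several of them are recurrently mutated in lymphoid cancers.

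Library totals were 24615359 to 37804516 counts. The 14 T-cell markers examined were all detected, at a summed 1751 to 1829 CPM (counts scaled to the size of each library after TMM, a correction for library composition) with FB23-2 and 2291 to 2317 CPM in control, and CD3E was 413 and 384 CPM with FB23-2 and 457 and 471 CPM in control. Of these markers 9 fell (64.3%) and 1 rose (7.14%), beside 20.3% lower and 21.8% higher among all tested genes. The part of the T-cell markers in the changes of the chromatin genes was not tested. Markers of B, myeloid, natural killer, erythroid and fibroblast cells summed to at most 48.4 CPM a list in any library, with CD79A making up most of the highest sum, and KLRF1 had 0 counts in all libraries. PLCG1 RNA was 295 and 291 CPM with FB23-2 and 265 and 265 CPM in control; a transcript count does not test for the protein. In bulk RNA, fewer cells of a type and less RNA per cell cannot be told apart.

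Of the 60 chromatin genes, 20 rose and 13 fell with FB23-2 (edgeR quasi-likelihood test, Benjamini-Hochberg adjusted p below 0.05 over all tested genes), and 27 did not pass. Among all tested genes 42.1% were called, 21.8% higher and 20.3% lower, and among tested protein-coding genes 27.5% and 23.4%. The shares of the 60 genes were 33.3% higher and 21.7% lower, so that the lower share lay near both backgrounds. The share called higher varied with exon length. At 8 kb or more it was 28.6% of 35 members and 31.3% of all tested genes. At 4 to 8 kb it was 44.4% of 18 members beside 28.8%, and at 2 to 4 kb 28.6% of 7 members beside 20.8%. The median log2 fold change of the 60 genes (FB23-2 over control, here and below) was 0.05, against 0.0014 for all tested genes. The changes were small. No member changed by 2-fold in the main fit, while calls of 2-fold or more were made for 3.03% of tested genes upwards and 4.46% downwards. HDAC9, the nearest at 0.99 on the log2 scale, ranged from 0.87 to 1.04 over the alternative fits. The filter used a minimum count of 10, whereas no member had fewer than 348 counts in a library. The median size of a called change was 0.40 on the log2 scale in the members and 0.50 in all called genes. FB23-2 libraries lay wholly above control for 31 members and wholly below for 20, beside 36.3% and 34.5% of all tested genes.

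**Figure D1:**
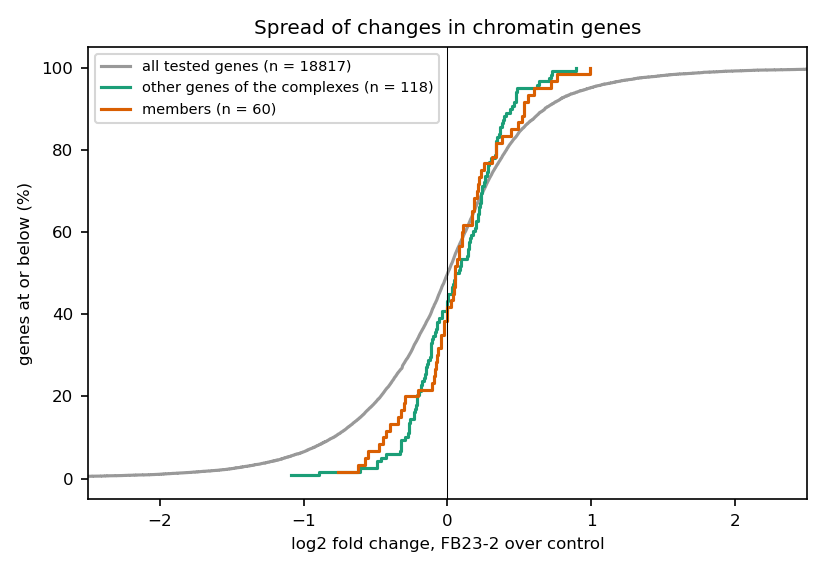
Cumulative share of genes (vertical axis, percent) at or below each log2 fold change of FB23-2 over control (horizontal axis), for the 60 members, 118 tested other genes of the same complexes and all 18817 tested genes. The member curve is steeper than that of all tested genes, with its ends at -0.76 and 0.99; values beyond 2.5 in either direction are not drawn.

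**Figure D2:**
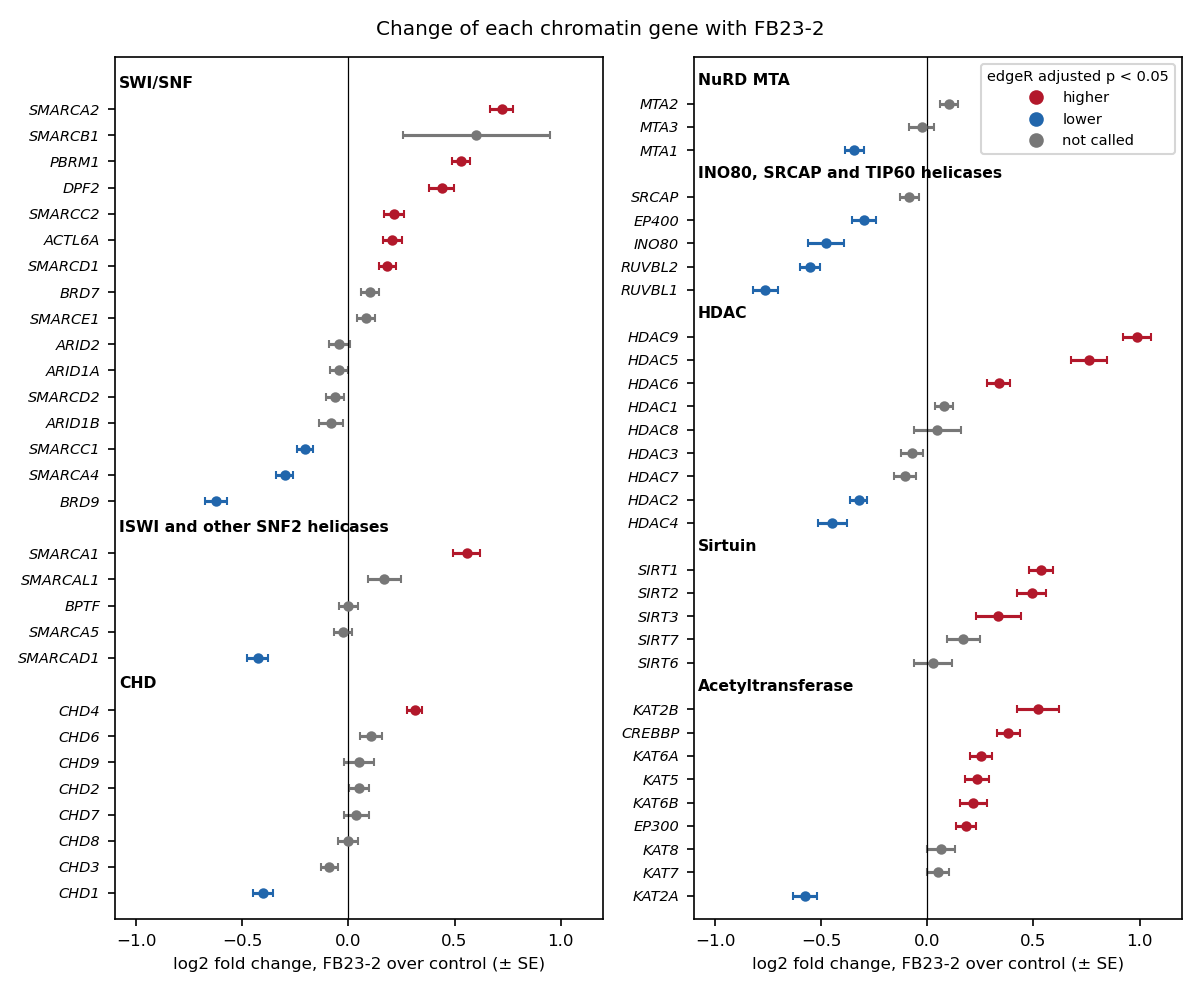
Log2 fold change of each of the 60 genes with FB23-2 over control (point) and its standard error (bar), by family, coloured by the edgeR call. RUVBL1, RUVBL2, INO80 and EP400 all lie left of 0, and HDAC9 and HDAC5 lie farthest right.

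SWI/SNF complexes are built around 1 of a pair of exclusive ATPases, SMARCA4 (BRG1) and SMARCA2 (BRM), and here the pair moved apart. SMARCA2 (chromosome 9, 1980290 to 2193624 of hg38) was 103 and 102 CPM with FB23-2 and 61.1 and 63.2 CPM in control. Its FB23-2 libraries stood well above both controls, a log2 fold change of 0.72 ± 0.05 (edgeR adjusted p = 7.56e-06), or 1.65-fold. SMARCA4 was 302 and 311 CPM with FB23-2 and 384 and 370.2 CPM in control. It fell by a smaller amount, -0.30 ± 0.04 (edgeR adjusted p = 2.78e-04), with no overlap between groups.

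Among subunits that mark out the 3 forms of the complex, the changes ran both ways. PBRM1, the polybromo subunit found in the PBAF form, was 282 and 297 CPM with FB23-2 and 197 and 204 CPM in control (0.53 ± 0.04, edgeR adjusted p = 1.60e-05). BRD9, the bromodomain subunit of the non-canonical form, was 65.8 and 66.5 CPM with FB23-2 and 100.1 and 104 CPM in control (-0.62 ± 0.05, edgeR adjusted p = 1.63e-05). Thus PBRM1 rose and BRD9 fell, and in each case the libraries of a group lay close together. DPF2, a histone-reading subunit of the canonical BAF form, also rose: it was 206 and 189 CPM with FB23-2 and 138 and 152 CPM in control (0.44 ± 0.06, edgeR adjusted p = 3.05e-04). The ARID subunits that also separate these forms did not pass, with ARID1A at -0.045 ± 0.04, ARID1B at -0.083 ± 0.06 and ARID2 at -0.042 ± 0.05, nor did BRD7 of PBAF at 0.10 ± 0.04. BRD7 shares 42.3% of its exon bases with ADCY7 on the opposite strand, which fell (-0.52), and since the strand setting of the counts is not given in the sources used here, reads of such pairs cannot be told apart.

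The core scaffold moved little. SMARCC1 was 339.7 and 341 CPM with FB23-2 and 390.5 and 394 CPM in control, and fell (-0.20 ± 0.04, edgeR adjusted p = 0.0016), while its paralog SMARCC2 rose (0.21 ± 0.05, edgeR adjusted p = 0.00582). SMARCC2 no longer passed once control replicate 1 was left out (edgeR adjusted p = 0.0822; lowest 0.00231 and highest 0.0822 over the alternatives), and the gene shares 6.01% of its exon bases with MYL6 on the opposite strand, which rose from 211 to 324 CPM. SMARCD1 (0.18 ± 0.04) and the actin-related subunit ACTL6A (0.21 ± 0.04) rose by similar amounts, and SMARCD1 lost its call when control replicate 2 was dropped (edgeR adjusted p = 0.0637; lowest 0.00118). SMARCB1, the core subunit lost in rhabdoid tumours, was the least reproducible member, at 70.2 and 87.0 CPM with FB23-2 and 65.6 and 39.8 CPM in control. The control libraries differed by more than the FB23-2 libraries did, and its log2 fold change, 0.60 ± 0.35, was not called (edgeR adjusted p = 0.314). SMARCB1 passed without control replicate 1 (0.96, edgeR adjusted p = 0.00573) and with limma voom (0.66, adjusted p = 0.0315), and its highest adjusted p was 0.648. SMARCD2 (-0.064 ± 0.04) and SMARCE1 (0.083 ± 0.04) did not pass.

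**Figure D3:**
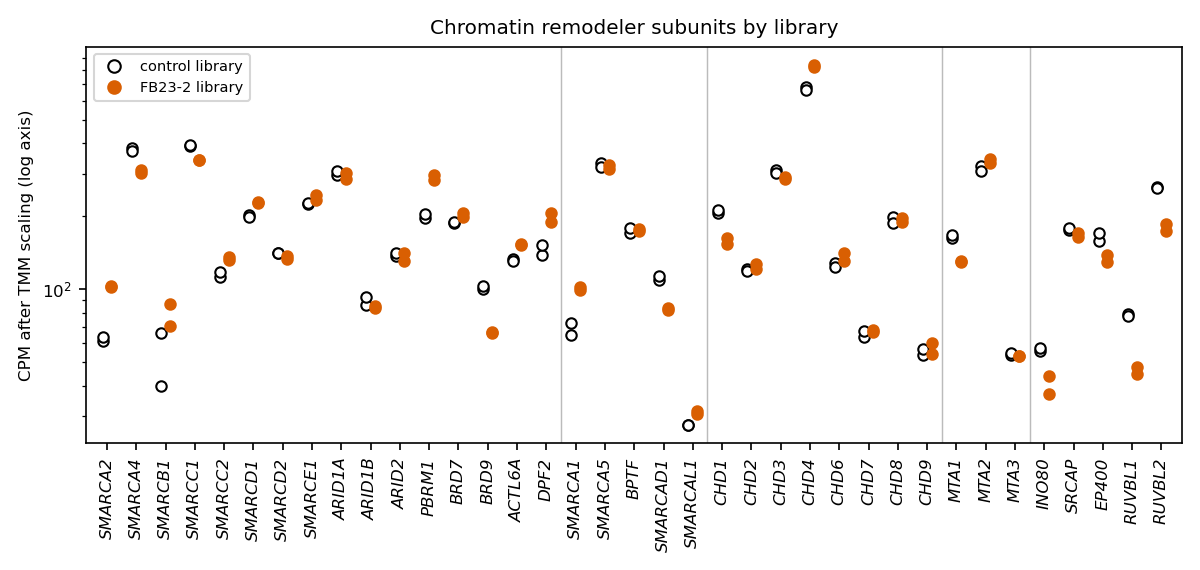
Level of each remodeler subunit (CPM after TMM scaling, log axis) in the 2 control libraries (open points) and the 2 FB23-2 libraries (filled points), with grey lines between families. The SMARCB1 control points (65.6 and 39.8 CPM) lie farthest apart.

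The ISWI remodelers space nucleosomes, and their 2 ATPases are SMARCA5 (SNF2H) and SMARCA1 (SNF2L). SMARCA5, the more abundant, was 327 and 313 CPM with FB23-2 and 332 and 319 CPM in control, and the groups overlapped (-0.024 ± 0.04). SMARCA1 was 99.6 and 102 CPM with FB23-2 and 64.4 and 72.3 CPM in control, and rose (0.56 ± 0.06, edgeR adjusted p = 1.08e-04). BPTF, the large reader subunit of the ISWI complex NURF, was 174 and 176 CPM with FB23-2 and 171 and 179 CPM in control, with overlapping groups. Of the 2 SNF2 genes outside these complexes, SMARCAD1, a remodeler tied to heterochromatin upkeep and DNA end resection, fell (83.8 and 81.8 CPM with FB23-2 and 109 and 113 CPM in control; -0.43 ± 0.05, edgeR adjusted p = 1.26e-04). SMARCAL1, an annealing helicase of stalled forks, did not pass (0.17 ± 0.08).

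The CHD family was the quietest of the larger groups, with 1 of 8 genes higher, 1 lower and 6 not passing. Among all tested genes 21.8% were higher and 20.3% lower. CHD4, the ATPase of the NuRD deacetylase complex, had the highest CPM of all members, 842 and 829 CPM with FB23-2 and 681 and 665 CPM in control, and rose (0.31 ± 0.03, edgeR adjusted p = 9.98e-05). CHD1, which works behind elongating polymerase, was 154 and 163 CPM with FB23-2 and 206 and 213 CPM in control, and fell (-0.40 ± 0.05, edgeR adjusted p = 1.26e-04). CHD3, the alternative NuRD ATPase, did not pass (-0.090 ± 0.04), and the other 5 ranged from -0.00081 (CHD8) to 0.11 (CHD6). CHD2, CHD7 and CHD8, known from developmental disorders, were among these. CHD4 shares 46.9% of its exon bases with an overlapping locus on the same strand, ENSG00000285238, an ID absent from the deposited counts.

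The MTA proteins scaffold NuRD and bind HDAC1 and HDAC2 directly. MTA1 was 131 and 129.9 CPM with FB23-2 and 163 and 168 CPM in control, and fell (-0.34 ± 0.04, edgeR adjusted p = 2.13e-04). MTA2, 3.12 times as abundant as MTA1 per kb of exon in control, was 343 and 331 CPM with FB23-2 and 322 and 306 CPM in control, and did not pass (0.10 ± 0.04). MTA3 did not pass either (-0.026 ± 0.06).

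All 5 helicase genes of the INO80, SRCAP and TIP60 complexes were lower in each FB23-2 library than in each control, beside 34.5% of all tested genes, and 4 of the 5 were called lower, beside 20.3%. Among members counted in other groups, KAT5, the acetyltransferase of TIP60 (0.23 ± 0.06), and ACTL6A, a subunit these complexes share with SWI/SNF (0.21 ± 0.04), rose. The largest fall of any member was that of RUVBL1 (chromosome 3, 128064778 to 128153914), 47.6 and 44.7 CPM with FB23-2 and 79.1 and 77.6 CPM in control (-0.76 ± 0.06, edgeR adjusted p = 1.23e-05), which is 1.70-fold lower. RUVBL2 was 186 and 173 CPM with FB23-2 and 265 and 261 CPM in control (-0.55 ± 0.05, edgeR adjusted p = 1.65e-05). These AAA+ ATPases form a ring that all 3 complexes share, and they also serve in the R2TP chaperone complex. The catalytic subunits INO80, at 37.1 and 44.0 CPM with FB23-2 and 55.7 and 56.9 CPM in control (-0.48 ± 0.08, edgeR adjusted p = 0.00152), and EP400, at 129 and 139 CPM with FB23-2 and 158 and 171 CPM in control (-0.30 ± 0.06, edgeR adjusted p = 0.0021), fell too. INO80 moves and evicts H2A.Z nucleosomes, and EP400 deposits H2A.Z or H3.3 within the TIP60 complex. SRCAP, the other H2A.Z loader, was 164 and 170.3 CPM with FB23-2 and 176 and 178 CPM in control and was not called (-0.085 ± 0.04, edgeR adjusted p = 0.151). SRCAP passed under 3 alternatives: upper quartile scaling (edgeR adjusted p = 0.0446), length and GC offsets (0.0431), and those offsets plus a replicate block (0.0414, against a highest p of 0.553). It shares 74.1% of its exon bases with ENSG00000282034 on the same strand, an ID absent from the deposited counts. RUVBL1 shares 5.01% and 5.39% with SEC61A1 and EEFSEC on the opposite strand, neither of which was called.

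The zinc-dependent deacetylases split, with 3 of 9 higher, 2 lower and 4 not passing. These shares, 33.3% higher and 22.2% lower, stand beside 21.8% and 20.3% of all tested genes. HDAC1, a class I enzyme of the NuRD, SIN3 and CoREST complexes, had the highest level per kb of exon of all members, and was 504 and 476 CPM with FB23-2 and 474 and 453 CPM in control. Its groups did not overlap, yet its difference, 0.080 ± 0.04, was not called (edgeR adjusted p = 0.164). Scaling by library size alone gave a call for HDAC1 (edgeR adjusted p = 0.0260; highest over the alternatives 0.783). HDAC2, its close paralog in the same complexes, was 219 and 214 CPM with FB23-2 and 267 and 275 CPM in control, and fell (-0.32 ± 0.04, edgeR adjusted p = 2.10e-04). HDAC3, the enzyme of the NCOR complexes (-0.072 ± 0.05), and HDAC8 (0.047 ± 0.11) did not pass.

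The class IIa deacetylases are signal-dependent corepressors that shuttle between nucleus and cytoplasm, and here they ranged from -0.45 to 0.99. HDAC9 (chromosome 7, 18086949 to 19002416) was 69.9 and 65.8 CPM with FB23-2 and 33.7 and 34.6 CPM in control. This was the largest rise of all members, 0.99 ± 0.07 (edgeR adjusted p = 4.74e-06), or 1.99-fold, and it ranked 938 among the 18817 tested genes from the highest fold change down. HDAC5 was 37.7 and 39.2 CPM with FB23-2 and 21.2 and 23.8 CPM in control (0.76 ± 0.08, edgeR adjusted p = 9.69e-05), also clear of control in each library. HDAC4 moved the other way, from 94.0 and 89.0 CPM in control to 62.6 and 71.6 CPM with FB23-2 (-0.45 ± 0.07, edgeR adjusted p = 7.89e-04). HDAC7, which is known to hold down the negative selection programme of thymocytes and was the most abundant of the class per kb, was 98.5 and 104 CPM with FB23-2 and 106 and 112 CPM in control, and was not called (-0.11 ± 0.05, edgeR adjusted p = 0.141). HDAC7 passed as lower with length and GC offsets (edgeR adjusted p = 0.0401) and with those plus a replicate block (0.0330, against a highest p of 0.538). HDAC6, the cytoplasmic class IIb enzyme that deacetylates tubulin, was 97.2 and 101 CPM with FB23-2 and 81.1 and 76.0 CPM in control, and rose (0.34 ± 0.06, edgeR adjusted p = 9.82e-04).

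Sirtuins rose in 3 of 5 cases and fell in 0, beside 21.8% higher and 20.3% lower among all tested genes. SIRT1, a nuclear deacetylase of histones and transcription factors, was 74.6 and 76.7 CPM with FB23-2 and 52.0 and 52.5 CPM in control (0.53 ± 0.06, edgeR adjusted p = 7.31e-05). SIRT2, which is mostly cytoplasmic, was 56.7 and 60.6 CPM with FB23-2 and 40.5 and 42.7 CPM in control (0.49 ± 0.07, edgeR adjusted p = 3.50e-04). The FB23-2 libraries of these genes stood clear of control. The mitochondrial SIRT3 was 19.7 and 20.3 CPM with FB23-2 and 14.4 and 16.9 CPM in control (0.34 ± 0.11, edgeR adjusted p = 0.0317), and its call was lost under 6 of 14 alternatives. SIRT3 failed when FB23-2 replicate 1 (edgeR adjusted p = 0.0911), FB23-2 replicate 2 (0.106) or control replicate 1 (0.206) was dropped; its lowest p was 0.0191. SIRT3 shares 6.07% of its exon bases with PSMD13 on the opposite strand, which fell from 191 to 150 CPM. SIRT6, a chromatin-bound enzyme of telomeres and repair (0.025 ± 0.09), and SIRT7, which is nucleolar (0.17 ± 0.08), did not pass.

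Of the 9 acetyltransferase genes, 6 rose and 1 fell, beside 21.8% higher and 20.3% lower among all tested genes. CREBBP (CBP), a broad coactivator, was 83.6 and 87.0 CPM with FB23-2 and 66.1 and 65.0 CPM in control (0.38 ± 0.05, edgeR adjusted p = 4.37e-04). Its partner EP300 (p300) was 135 and 138 CPM with FB23-2 and 123 and 117 CPM in control, a smaller rise (0.18 ± 0.05, edgeR adjusted p = 0.0125). EP300 failed when FB23-2 replicate 1 (edgeR adjusted p = 0.0537), FB23-2 replicate 2 (0.0604) or control replicate 2 (0.125) was dropped; its lowest p was 0.00359.

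The GCN5-type pair moved in opposite directions. KAT2A (GCN5, chromosome 17, 42113108 to 42121358), the acetyltransferase of the SAGA and ATAC complexes, was 47.1 and 46.0 CPM with FB23-2 and 69.4 and 69.4 CPM in control (-0.58 ± 0.06, edgeR adjusted p = 5.27e-05). Its alternate KAT2B (PCAF) was 29.1 and 29.5 CPM with FB23-2 and 18.3 and 22.0 CPM in control (0.52 ± 0.10, edgeR adjusted p = 0.00245). Thus KAT2A fell and KAT2B rose, with no overlap between groups in either.

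Of the MYST acetyltransferases, KAT5 (TIP60) was 67.9 and 67.2 CPM with FB23-2 and 57.1 and 57.7 CPM in control (0.23 ± 0.06, edgeR adjusted p = 0.00787), KAT6A (MOZ) rose by 0.25 ± 0.05 (edgeR adjusted p = 0.00391) and KAT6B (MORF) by 0.22 ± 0.06 (edgeR adjusted p = 0.0209). KAT5 failed when control replicate 1 (edgeR adjusted p = 0.0632) or FB23-2 replicate 1 (0.0528) was dropped; its lowest p was 0.00296. KAT6A failed when control replicate 2 was dropped (edgeR adjusted p = 0.0597; lowest 0.000782). KAT6B did not pass without any 1 library (edgeR adjusted p = 0.0523 to 0.160) or under 3 further alternatives, in a range of 0.00822 to 0.160. KAT5 shares 38.6% of its exon bases with RNASEH2C on the opposite strand, which averaged 106 CPM after FB23-2 against 102 CPM in control and was not called. KAT7 (HBO1, 0.052 ± 0.05) and KAT8 (MOF, 0.064 ± 0.06), known for acetylating histones H3 and H4, did not pass.

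**Figure D4:**
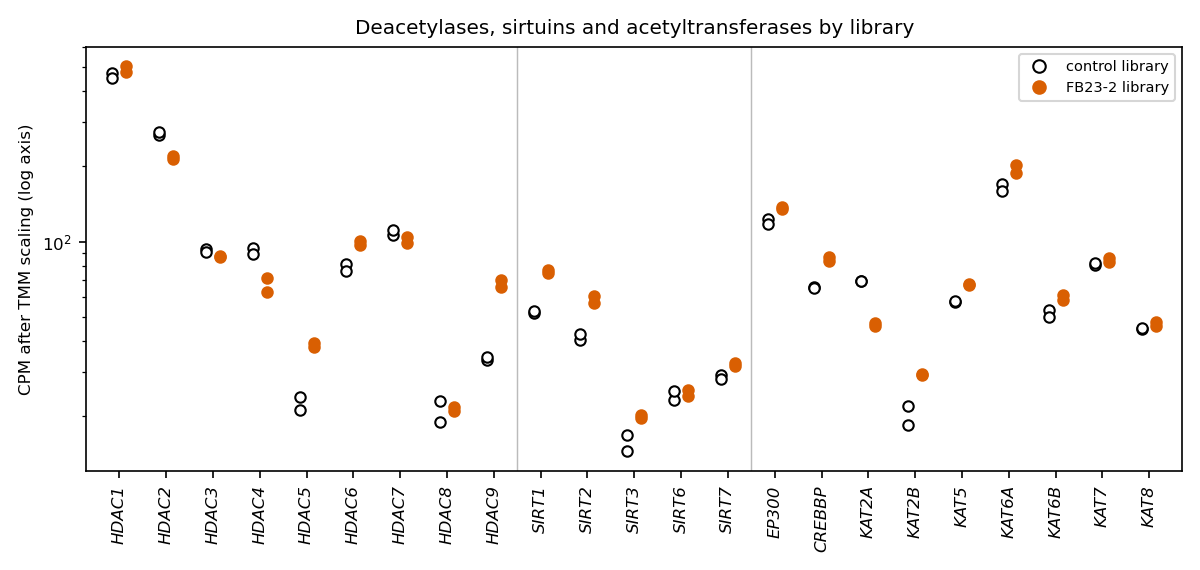
Level of each deacetylase, sirtuin and acetyltransferase gene (CPM after TMM scaling, log axis) in the 2 control libraries (open points) and the 2 FB23-2 libraries (filled points), with grey lines between families. HDAC9 rose from 33.7 and 34.6 to 69.9 and 65.8 CPM, and KAT2A and KAT2B moved towards each other.

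Promoters of the members were read from RefSeq (GRCh38.p14, a window from upstream of each start to just past it), where 49 of the 60 genes matched with 83 listed starts. They were searched on both strands for the E-box CACGTG, the letters bound by MYC with MAX and by related factors, for the ETS letters CCGGAAG and for the cAMP response element TGACGTCA. The E-box was in 5 of the 83 member promoters (6.02%), beside 7.26% of all 35116 listed promoters. The ETS letters were in 12 (14.5%, beside 10.3%), and TGACGTCA was in 0 (beside 1.85%). The 5 with an E-box belong to SIRT1, PBRM1 and KAT5, which rose, HDAC4, which fell, and CHD9, which did not pass. The ETS letters were in 4 promoters of genes that rose, 5 of genes that fell and 3 of genes that did not pass, where 2 of the 5 are overlapping windows of SMARCAD1. The 5 promoters below are all those with the E-box, the letters of these motifs are in capitals, and no match in them overlaps another.
SIRT1: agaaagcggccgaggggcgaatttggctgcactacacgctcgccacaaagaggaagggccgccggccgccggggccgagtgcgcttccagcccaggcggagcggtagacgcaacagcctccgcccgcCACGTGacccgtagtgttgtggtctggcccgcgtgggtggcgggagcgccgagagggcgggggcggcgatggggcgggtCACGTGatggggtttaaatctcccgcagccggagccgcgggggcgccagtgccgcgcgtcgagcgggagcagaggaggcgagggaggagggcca
PBRM1: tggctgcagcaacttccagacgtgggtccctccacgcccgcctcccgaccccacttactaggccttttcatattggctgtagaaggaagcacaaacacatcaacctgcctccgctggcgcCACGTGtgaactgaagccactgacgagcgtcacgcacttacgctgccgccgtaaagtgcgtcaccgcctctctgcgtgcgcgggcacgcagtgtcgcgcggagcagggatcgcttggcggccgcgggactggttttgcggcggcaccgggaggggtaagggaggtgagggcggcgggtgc
KAT5: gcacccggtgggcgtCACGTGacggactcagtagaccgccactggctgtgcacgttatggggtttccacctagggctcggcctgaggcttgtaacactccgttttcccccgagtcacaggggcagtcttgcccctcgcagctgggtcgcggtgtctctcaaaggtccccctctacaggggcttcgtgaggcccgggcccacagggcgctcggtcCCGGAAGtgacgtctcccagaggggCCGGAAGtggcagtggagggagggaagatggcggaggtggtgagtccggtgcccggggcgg
HDAC4: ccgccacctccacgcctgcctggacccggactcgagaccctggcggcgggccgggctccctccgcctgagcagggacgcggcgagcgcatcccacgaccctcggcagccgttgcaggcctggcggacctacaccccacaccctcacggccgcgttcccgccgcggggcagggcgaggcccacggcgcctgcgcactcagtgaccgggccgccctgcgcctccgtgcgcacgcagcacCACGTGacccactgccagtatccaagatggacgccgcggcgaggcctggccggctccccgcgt
CHD9: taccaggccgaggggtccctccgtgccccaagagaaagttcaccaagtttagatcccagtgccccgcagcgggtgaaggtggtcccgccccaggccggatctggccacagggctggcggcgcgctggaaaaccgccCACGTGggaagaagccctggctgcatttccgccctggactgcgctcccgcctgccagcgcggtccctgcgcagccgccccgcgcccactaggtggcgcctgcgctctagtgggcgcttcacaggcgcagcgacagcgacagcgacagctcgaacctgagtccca
They lie at chr10:67884406-67884705 (plus strand), chr3:52685864-52686163 (minus strand), chr11:65712002-65712301 (plus strand), chr2:239401600-239401899 (minus strand) and chr16:53054741-53055040 (plus strand). The SIRT1 promoter holds the E-box at 2 places. KAT5 holds 1 E-box far upstream and 2 ETS matches near the start. HDAC4 has 5 listed starts, and the E-box is at 1 of them. A match describes these letters only, and which start these cells use was not examined.

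Because complexes choose between paralogs, the ratio of paralog levels was followed in each library for 13 pairs, as the ratio of CPM per kb of exon. Length was the union of annotated exons, so the size of a ratio depends on annotation, but its fold shift between groups does not. With 2 libraries against 2, the exact two-sided permutation test cannot go below p = 0.333, so these ratios are a description. In 11 pairs the FB23-2 libraries lay wholly on one side of the control libraries, where the levels of single genes did so for 36.3% (above) and 34.5% (below) of all tested genes, so that this count by itself does not set the pairs apart. SMARCA4 exceeded SMARCA2 by 7.41 and 6.90 times in control and by 3.45 and 3.59 times with FB23-2. KAT2A exceeded KAT2B by 5.65 and 4.71 times in control and by 2.42 and 2.34 times with FB23-2. In each of these pairs the rarer paralog gained on the commoner one. The ratio of HDAC7 to HDAC5 fell likewise, from 3.83 and 3.60 to 2.00 and 2.04.

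Ratios within the NuRD deacetylase core moved the other way, towards the more abundant paralog. HDAC1 exceeded HDAC2 by 6.94 and 6.42 times in control and by 8.96 and 8.68 times with FB23-2. The annotated exon length is 3963 bases for HDAC1 and 15461 for HDAC2. Without division by length, control levels were 474 and 453 CPM for HDAC1 and 267 and 275 CPM for HDAC2. The geometric mean ratio of MTA2 to MTA1 went from 3.12 to 4.25, and CHD4 to CHD3 from 1.68 and 1.69 to 2.27 and 2.19. For all 3 pairs the shift was larger than the gap between replicates. This direction was not limited to NuRD. SMARCD1 to SMARCD2 went from a geometric mean of 1.04 in control to 1.23 with FB23-2. RUVBL1 to RUVBL2 went from 0.159 to 0.138, also towards the more abundant RUVBL2. By contrast, SMARCC1 to SMARCC2 (3.81 to 2.85) and CREBBP to EP300 (0.440 to 0.505) moved towards the rarer paralog. The 2 pairs that overlapped were ARID1A to ARID1B (9.66 and 9.30 in control, 9.38 and 10.0 with FB23-2) and CHD8 to CHD7. KAT6A to KAT6B did not overlap, but moved by 0.04 on the log2 scale.

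**Figure D5:**
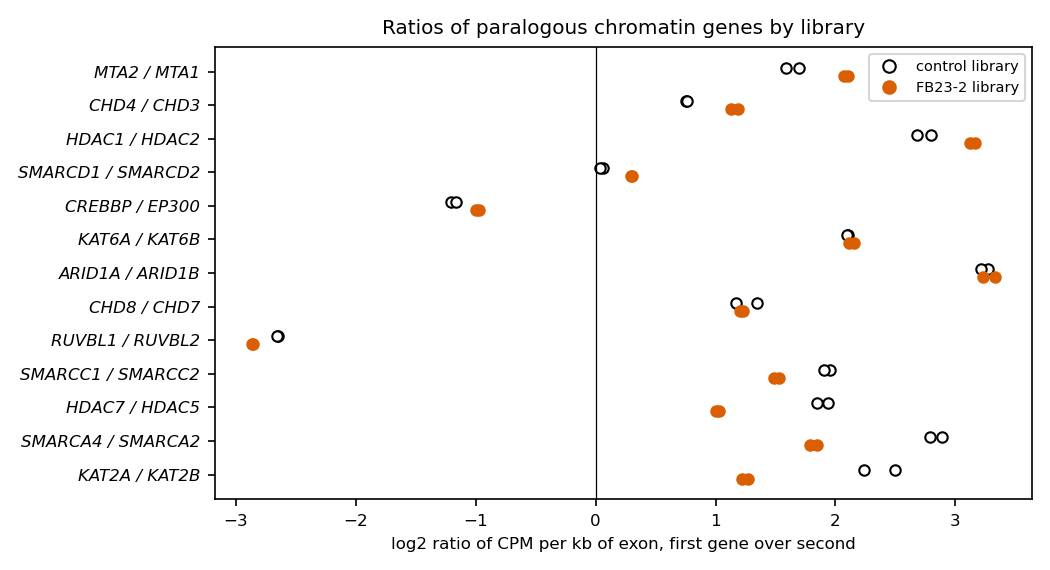
Log2 ratio of CPM per kb of exon between 2 paralogs (horizontal axis) in each control library (open points) and FB23-2 library (filled points), ordered by the shift between groups. KAT2A / KAT2B, SMARCA4 / SMARCA2 and HDAC7 / HDAC5 lie farther left with FB23-2, and MTA2 / MTA1 farther right.

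Compared per kb of exon (the union of annotated exons, so that genes with many rare exons are understated), members spanned from 0.910 CPM per kb for HDAC8 to 117 for HDAC1 in control. HDAC1 was followed by MTA2 (76.1 and 72.3 CPM per kb in the control libraries) and RUVBL2 (72.3 and 71.2), and these last did not differ beyond their spread. CHD4 (53.6 and 52.3) and SMARCC1 (51.1 and 51.5) came next. With FB23-2, CHD4 and RUVBL2 exchanged places: CHD4 stood at 66.2 and 65.2 CPM per kb, above RUVBL2 at 50.6 and 47.2. SMARCC1 remained below both, at 44.4 and 44.6. HDAC1 remained first at 127 and 120. ARID1B, KAT6B and HDAC8 were the lowest in control and with FB23-2.

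Other genes of the same complexes, 119 in a list written alongside the members, gave 41 higher and 27 lower of 118 tested, with a median log2 fold change of 0.07. These shares, 34.7% and 22.9%, stand beside 21.8% and 20.3% of all tested genes and 27.5% and 23.4% of protein-coding ones, so that the lower share lay near background, and the counts of the smaller lists below are to be read against the same shares. ACTL6B, the neuronal actin-related subunit, was not tested. After offsets for length and GC content the split was 38 higher and 38 lower. The share of all tested genes called with those offsets is not given here, so the shares above are not a like background for that split. Other SWI/SNF subunits rose in 6 of 13 cases and fell in 2. SMARCD3, an alternative to SMARCD1 and SMARCD2, was 59.3 and 60.2 CPM with FB23-2 and 35.7 and 36.7 CPM in control (0.72 ± 0.06), and DPF3, an alternative to DPF2, rose as well (0.64 ± 0.08). BCL11B, a T-lineage factor that binds this complex and NuRD, was 154 and 147 CPM with FB23-2 and 234 and 227 CPM in control, and fell (-0.61 ± 0.04, edgeR adjusted p = 7.69e-06). Other ISWI and SNF2 genes had 4 higher and 2 lower of 13, other NuRD genes 1 higher (GATAD2B, 0.34 ± 0.06) and 3 lower of 7, with GATAD2A at -0.47 ± 0.04.

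Other genes of the INO80, SRCAP and TIP60 complexes fell in 9 of 25 cases and rose in 5, for a median of -0.0032. Called members of this wider list thus ran both ways. INO80B, a subunit of INO80, was 11.4 and 12.9 CPM with FB23-2 and 25.5 and 25.9 CPM in control, the only 2-fold change among the 118 (-1.09 ± 0.10, edgeR adjusted p = 3.48e-05). It shares 72.0% of its exon bases with the read-through INO80B-WBP1, which was at 2.41 CPM in 1 FB23-2 library and at 0 counts in the others. UCHL5 fell (-0.43 ± 0.05), while DMAP1 (0.41 ± 0.06), ACTR8 (0.38 ± 0.06) and BRD8 (0.36 ± 0.05) rose. UCHL5 shares 6.77% with RO60 on the opposite strand, which rose.

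Other deacetylases and corepressors rose in 8 of 22 cases and fell in 3. The SIN3 subunits ARID4A (0.48 ± 0.06) and ARID4B (0.45 ± 0.05) were higher, and MIDEAS, a scaffold of an HDAC1 complex, was lower (-0.49 ± 0.06). ARID4B shares 14.5% of its exon bases with RBM34 on the same strand, which was not called (-0.010). Other acetyltransferase complex genes rose in 15 of 35 and fell in 7. BRPF3, a scaffold for KAT7, was 67.7 and 69.0 CPM with FB23-2 and 37.4 and 36.4 CPM in control (0.89 ± 0.06), and NCOA3, a nuclear receptor coactivator, was 88.6 and 90.1 CPM with FB23-2 and 51.9 and 55.7 CPM in control (0.73 ± 0.06). HCFC1 fell (-0.33 ± 0.04). Of the BET proteins, which read acetylated histones, BRD2 was 34.8 and 29.1 CPM with FB23-2 and 57.2 and 61.6 CPM in control, and fell (-0.90 ± 0.09, edgeR adjusted p = 5.09e-05). BRD3 rose (0.19 ± 0.05), but not without FB23-2 replicate 1 or control replicate 2 (edgeR adjusted p up to 0.101).

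Because FB23-2 carries a hydroxamic acid, transcripts known to respond to HDAC inhibitors were read beside the HDAC genes. Of those known to rise, CDKN1A, a cyclin-dependent kinase inhibitor, was 4.29 and 5.02 CPM with FB23-2 and 1.83 and 2.12 CPM in control (1.21 ± 0.23), and CLU, clusterin, was 16.1 and 15.2 CPM with FB23-2 and 7.14 and 7.23 CPM in control (1.12 ± 0.13). GLRX, glutaredoxin, was 44.6 and 44.5 CPM with FB23-2 and 69.7 and 59.4 CPM in control, and fell (-0.53 ± 0.08). CDKN1A and CLU thus rose, and GLRX moved the other way. Of 2 known to fall, CTPS1 was 106 and 102 CPM with FB23-2 and 208 and 198 CPM in control (-0.97 ± 0.05), and TYMS, at 782 and 729 CPM with FB23-2 and 669 and 670.3 CPM in control, rose (0.17 ± 0.04). TYMS failed when FB23-2 replicate 1 or either control library was dropped, and with no filter (edgeR adjusted p up to 0.101), and it shares 39.1% of its exon bases with ENOSF1 on the opposite strand. Whether HDAC activity changed was not tested.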

How the data were processed

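Values are the whole-number counts per Ensembl gene that the authors deposited for 4 libraries, not normalized. The submitters' processing notes list hg38, HISAT2 2.2.0 and StringTie; for the counting step, annotation release and strand setting, nothing is given in the sources used here. Library totals were 24615359 to 37804516 counts, so that 3 counts equal 0.0785 to 0.125 CPM, counting error only. Replicates were not copies: chi-square over degrees of freedom was 6.69 and 7.48 within groups and 74.6 to 82.3 between. Genes were kept by filterByExpr (minimum count 10), scaled by TMM and tested with edgeR 4.0.16 glmQLFit (robust) and glmQLFTest in R 4.3.3, at a Benjamini-Hochberg adjusted p of 0.05 over 18817 genes. The SE is the log2 fold change over the root of F. The fit was tested on simulated counts. Symbols came from a table of gene names, lengths, overlaps and coordinates from GENCODE 29 (GRCh38, the build of hg38). Alternatives used DESeq2 1.42.0, limma 3.58.1 voom, other scalings and filters, a replicate block, length and GC offsets, and each library left out. Members and lists were chosen with earlier results of these data known. All members are named; of other complex genes, those among the 3 largest called changes in each direction (mean of at least 5 CPM); and genes known to respond to HDAC inhibitors at any level, BET readers, and CD3E and PLCG1 as checks, with overlapping genes and ACTL6B named beside them. Results for a few genes of the other lists are not reported here.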

Additional observations from a re-analysis of the deposited data

How the results depend on the processing

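Over 14 alternatives, the members called higher numbered 16 to 26 and the members called lower 13 to 18. Of the 33 called members, 26 kept their call and direction under every alternative, 7 lost it under at least 1, and 12 uncalled members gained one. With the replicate number as a block, 21 members were higher and 13 lower, and 4237 and 4031 genes in all. The labels do not say that numbers pair the samples, and the correlation of same-numbered deviations from the group means was 0.06. This low value cannot settle whether samples with the same number were paired. The block ended no call among members and added that of MTA2 (edgeR adjusted p = 0.0365). With any 1 library left out, other complex genes called higher numbered 27 to 39 (lowest without control replicate 1) and other complex genes called lower 16 to 27 (lowest without control replicate 2), a fit with fewer samples in which the lone library is assumed to vary like the other group. Offsets for exon length and GC content, which 93.1% of tested genes had, gave 19 members higher and 18 lower. The member median was then -0.01, and SMARCA5, ARID2, CHD3, SRCAP and HDAC7 passed as lower. The share of all tested genes called with these offsets is not given here. The shares of the main fit are thus not a like background for these counts. No called member changed direction. Uncalled members near 0 did so, as log2 fold changes: With length and GC offsets, SMARCE1 (-0.058), CHD2 (-0.0067), CHD7 (-0.016), CHD9 (-0.091), HDAC8 (-0.059), KAT7 (-0.013). With the replicate block and these offsets, SMARCE1 (-0.061), CHD2 (-0.0068), CHD7 (-0.015), CHD9 (-0.088), HDAC8 (-0.067), KAT7 (-0.014). With scaling by library size alone, ARID1A (0.0030), ARID2 (0.0054), SMARCA5 (0.023), BPTF (0.046), CHD8 (0.047), MTA3 (0.021). With the replicate block, BPTF (0.00025). With upper quartile scaling, CHD7 (-0.0037), SIRT6 (-0.016). With limma voom, CHD8 (0.0015). With 1 library left out in turn, log2 fold changes that crossed 0 ran for SMARCA5 from -0.075 to 0.0099, BPTF from -0.052 to 0.039, CHD7 from -0.019 to 0.087, CHD8 from -0.041 to 0.024, CHD9 from -0.023 to 0.11, HDAC8 from -0.10 to 0.16, SIRT6 from -0.046 to 0.099.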
